A study of Mus musculus with 39 samples.

Results

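The 7 genes Afp, Ttr, Apoa1, Apoe, Rbp4, Cer1 and Hhex, which encode secreted proteins and regulators of the visceral endoderm, were examined for 4 histone marks in 3 sorted populations of mouse naive extra-embryonic endoderm (nEnd). Every listed peak that touched the gene body or the 20 kb on either side of it was taken, on GRCm38 with the GENCODE vM21 annotation. These windows held 108 of the 432096 peaks of the 36 lists, and the genes were 7 of 21911 protein-coding genes.

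The nEnd cultures were made from a mouse embryonic stem cell line that carries an OCT4-mCherry reporter, and were kept in RPMI-based medium with Activin A, the GSK3 inhibitor CHIR99021 and LIF. Cells were sorted by flow cytometry into an Oct4+ population (OCT4-mCherry alone), a DP population (OCT4-mCherry together with the surface receptor PDGFRA) and a Pdgfra+ population (PDGFRA alone), and none of the groups received a further treatment. CUT&Tag, in which an antibody brings a transposase to the chromatin that carries a mark, was run for H3K4me1, H3K27ac, H3K27me3 and H3K9me3 with 3 replicates of each population, giving 36 libraries. All populations share 1 reporter line and 1 medium, and the cells are a culture model of the early endoderm, not visceral endoderm taken from an embryo.

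The visceral endoderm is the polarized epithelium that surrounds the early mouse embryo, where it absorbs nutrients, secretes carrier proteins and, at its anterior, releases inhibitors that pattern the epiblast. Its secreted proteins are largely those that the fetal liver makes later, among them apolipoproteins and carriers of retinol, thyroid hormone and fatty acids. H3K4me1 lies at enhancers, H3K27ac at active enhancers and promoters, H3K27me3 at genes under Polycomb and H3K9me3 at heterochromatin and repeats.

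Each value below is the percent of a gene's window that lay under listed peaks in 1 library, called covered percent. Values are given for replicates 1, 2 and 3 of each population, and distances from a gene's start are negative upstream of it. The depth of sequencing is not known from the labels, the methods or the lists, the deposited signal was not scaled to it, and the lists held 1074 to 65131 peaks, so a 0 means that no peak was listed and not that the mark was absent. In mixed cells, fewer cells with a mark and less of the mark per cell cannot be told apart.

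The sequences below are from the regions on which the results turn. The first pair are the 300 bases around the middle of the H3K4me1 maxima at the recurrent sites of the Apoa1 locus, at chr9:46215442-46215741 in an intron of Sik3 and at chr9:46241927-46242226 inside Apoa4, both on the plus strand of GRCm38. The label Apoa4 start names the site, which spans that start, and the printed bases do not hold it. They are centred 13.5 kb past the Apoa1 start, and Apoa4 starts at 12.1 kb. The next 3 are the RefSeq promoters (GRCm38.p6, from 250 bases before to 50 bases after the start) of the genes whose start lay under a peak of H3K27ac or H3K27me3 in more than 1 library: Apoe at chr7:19699139-19699438 on the minus strand, Rbp4 at chr19:38125272-38125571 on the minus strand and Hhex at chr19:37434591-37434890 on the plus strand. The last is the middle of the H3K9me3 site downstream of Cer1, at chr4:82870755-82871054 on the minus strand, between genes. Capitals mark matches, on either strand, to short words that factors of the endoderm bind. GATA factors were searched by the words AGATAA and, as a variant, TGATAA. SOX factors were searched by the word ACAAT. FOXA factors were searched by the words TGTTTAC and, as a variant, TATTTAC. HNF4 was searched by the word CAAAGTCCA. No matches of different words overlapped.
Apoa1 upstream: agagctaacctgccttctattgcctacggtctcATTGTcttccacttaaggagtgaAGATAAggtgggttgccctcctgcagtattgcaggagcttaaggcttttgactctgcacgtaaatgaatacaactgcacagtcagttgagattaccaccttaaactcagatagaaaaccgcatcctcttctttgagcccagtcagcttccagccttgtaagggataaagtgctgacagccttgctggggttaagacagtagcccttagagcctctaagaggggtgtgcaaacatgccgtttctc
Apoa4 start: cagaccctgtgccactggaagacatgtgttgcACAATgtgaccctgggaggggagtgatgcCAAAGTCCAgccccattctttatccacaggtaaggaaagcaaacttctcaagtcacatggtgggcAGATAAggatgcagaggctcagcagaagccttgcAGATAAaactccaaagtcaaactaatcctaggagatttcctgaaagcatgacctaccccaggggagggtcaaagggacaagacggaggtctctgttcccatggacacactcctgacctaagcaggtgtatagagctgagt
Apoe promoter: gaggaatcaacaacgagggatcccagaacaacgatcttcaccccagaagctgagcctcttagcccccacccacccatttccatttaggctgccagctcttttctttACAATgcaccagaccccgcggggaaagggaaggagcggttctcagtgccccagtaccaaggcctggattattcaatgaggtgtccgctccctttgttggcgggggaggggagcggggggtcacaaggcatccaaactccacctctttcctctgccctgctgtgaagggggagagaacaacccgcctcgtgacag
Rbp4 promoter: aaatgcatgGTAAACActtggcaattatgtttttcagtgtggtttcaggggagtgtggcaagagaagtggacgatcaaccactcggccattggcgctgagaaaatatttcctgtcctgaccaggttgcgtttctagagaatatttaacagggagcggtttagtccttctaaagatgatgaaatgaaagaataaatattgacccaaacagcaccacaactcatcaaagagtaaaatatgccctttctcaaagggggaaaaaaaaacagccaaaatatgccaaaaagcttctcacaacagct
Hhex promoter: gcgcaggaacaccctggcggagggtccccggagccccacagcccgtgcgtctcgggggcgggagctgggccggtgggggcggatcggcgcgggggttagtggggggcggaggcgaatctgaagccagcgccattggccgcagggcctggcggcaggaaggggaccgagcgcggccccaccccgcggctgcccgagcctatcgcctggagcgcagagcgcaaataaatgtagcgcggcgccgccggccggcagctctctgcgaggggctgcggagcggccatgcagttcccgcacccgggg
Cer1 downstream: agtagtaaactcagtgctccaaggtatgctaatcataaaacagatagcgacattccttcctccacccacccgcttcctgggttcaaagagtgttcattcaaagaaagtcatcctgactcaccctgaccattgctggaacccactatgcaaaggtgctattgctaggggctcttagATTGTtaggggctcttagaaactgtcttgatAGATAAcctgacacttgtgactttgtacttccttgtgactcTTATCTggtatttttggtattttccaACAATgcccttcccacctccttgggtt

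The site upstream of Apoa1 held 1 GATA and 1 SOX word, and the site at Apoa4 held 2 GATA words, 1 SOX word and 1 HNF4 word. Among the windows of the same length at all H3K4me1 maxima of the 9 lists, 31.6% held a GATA word, 39.0% a SOX word and 0.688% the HNF4 word. The Cer1 site held 2 GATA and 2 SOX words. At least 1 GATA word occurred in 27.4% of the windows at H3K9me3 maxima, and at least 1 SOX word in 41.5%. The Rbp4 promoter held 1 FOXA word, found in 6.54% of all promoters, and the Apoe promoter 1 SOX word, found in 31.0%. The promoters of the 7 genes differed in CpG content: Hhex had 37 CpG in 300 bases, more than 94.4% of all promoters, Apoe had 10, Cer1 6, Rbp4 5, Apoa1 4 and Afp 3, and the median of all promoters was 7. The promoter of Ttr was not in the table used.

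**Figure D1:**
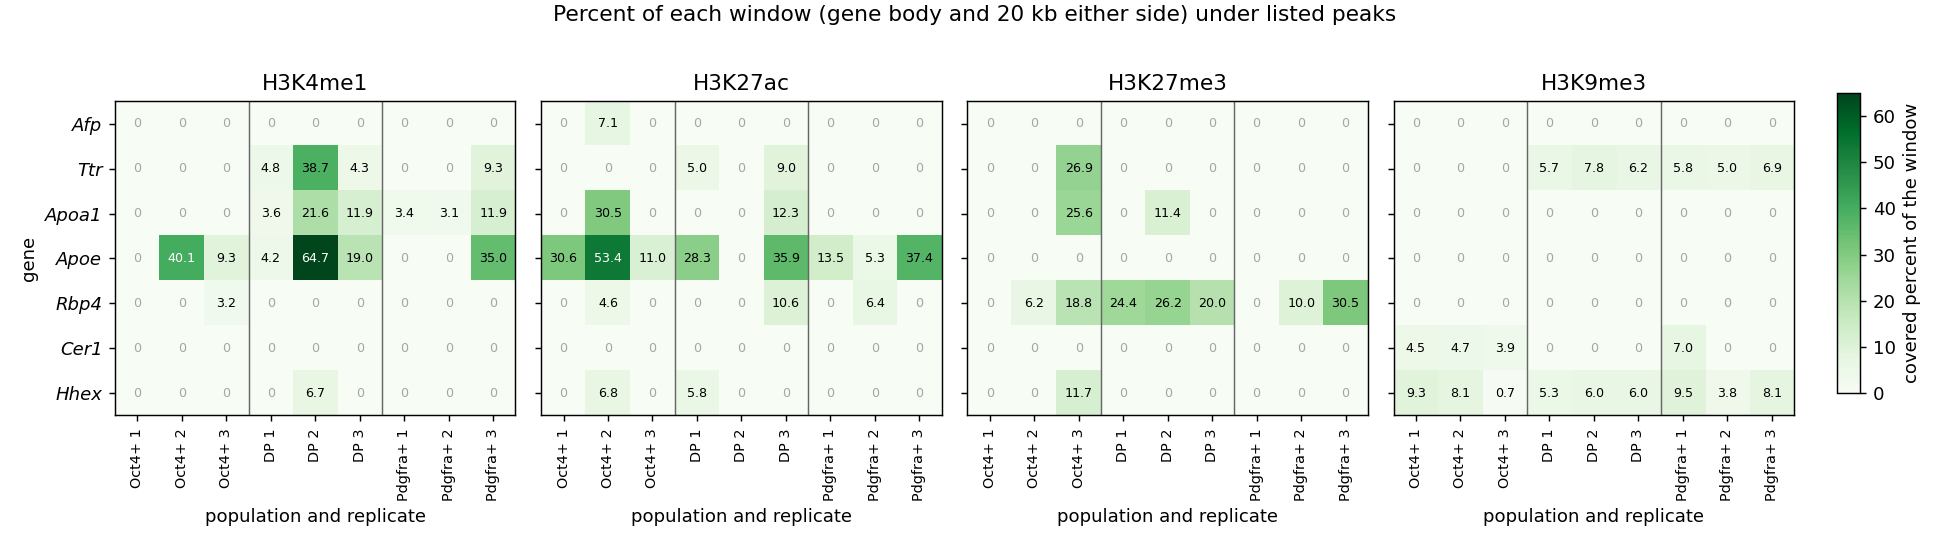
Covered percent (percent of the gene body and 20 kb either side under listed peaks, printed and shaded) of the 7 genes in each of the 36 libraries, with 1 panel per mark and the populations divided by lines. Afp has a value above 0 in 1 library of 36, Apoe has none for H3K27me3 or H3K9me3, and Ttr has H3K9me3 in 6 of 6 DP and Pdgfra+ libraries.

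Apoa1 encodes the main protein of high-density lipoprotein. Its window, 41.9 kb on chromosome 9 around chr9:46228580-46230466, also holds the starts of the apolipoprotein genes Apoc3 and Apoa4. H3K4me1 covered 0, 0 and 0% of it in Oct4+, 3.65, 21.6 and 11.9% in DP, and 3.39, 3.10 and 11.9% in Pdgfra+. Each DP and each Pdgfra+ library thus lay above each Oct4+ library, with means of 12.4 ± 9.0, 6.13 ± 5.0 and 0% (SD, n = 3) in DP, Pdgfra+ and Oct4+. A peak in 6 of 6 DP and Pdgfra+ libraries and in 0 of 3 Oct4+ libraries was found at 0.26% of all genes. The exact permutation test over the 3 populations gave p = 0.0393, and 9.4% of the genes tested for this mark had an unadjusted p below 0.05. The Benjamini-Hochberg adjusted p was 0.450, above the threshold of 0.05, so the difference was not called. Without DP replicate 2 the difference between DP and Oct4+ was 7.78 points instead of 12.4, and with equal numbers of peaks per list 1 of the 6 DP and Pdgfra+ libraries had a peak.

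The H3K4me1 peaks of Apoa1 that recurred between libraries fell on a pair of sites, whose sequences are given above. A further peak, chr9:46234776-46237938 over the Apoc3 start, was listed in DP replicate 2 alone and was part of its 21.6%. The upstream site, chr9:46214290-46216217, lay at -14.3 to -12.4 kb from the Apoa1 start, inside an intron of Sik3, a kinase gene. It was listed in 3 of 3 Pdgfra+ libraries, in DP replicate 3 and in no Oct4+ library, with maxima between -13.1 and -12.9 kb. The downstream site, chr9:46238541-46244432, spanned the start of Apoa4, which encodes a chylomicron apolipoprotein, and had its maxima at 13.4 to 13.6 kb from the Apoa1 start. It was listed in 3 of 3 DP libraries, in Pdgfra+ replicate 3 and in no Oct4+ library. The Pdgfra+ libraries with the upstream site alone, replicates 1 and 2, had the shortest H3K4me1 lists, with 1723 and 1074 peaks and a peak near 8.21 and 5.35% of all genes. The Oct4+ lists, which had no peak at either site, were longer, with 4127 to 16057 peaks. Their lowest total signals were 5344, 8222 and 7219 in replicates 1, 2 and 3. The upstream peak of Pdgfra+ replicate 1, at 4996, was below all of these. That of Pdgfra+ replicate 2, at 8140, and the downstream peak of DP replicate 1, at 6754, were below some. The remaining peaks of the pair of sites were above all. These totals are not scaled to depth, and their part in the result was not tested.

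The other marks of the Apoa1 window were listed in single libraries. H3K27ac covered 30.5% of it in Oct4+ replicate 2 and 12.3% in DP replicate 3, and was not listed in the other 7 libraries. The DP peak had its maximum 13.5 kb past the start, at the downstream H3K4me1 site. The Oct4+ peaks chr9:46238181-46240047 and chr9:46240477-46242632 overlapped the same site, with maxima at 10.1 and 12.7 kb. Oct4+ replicate 2 was the longest list of all, and 81.4% of all genes had an H3K27ac peak in it. H3K27me3 covered 25.6% in Oct4+ replicate 3, over the starts of Apoc3 and Apoa4, and 11.4% in DP replicate 2, over the Apoa1 start. The start of Apoa1 itself lay under no H3K4me1 or H3K27ac peak in any library, and no H3K9me3 peak was listed in the window, the nearest being 90.3 kb from the start.

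**Figure D2:**
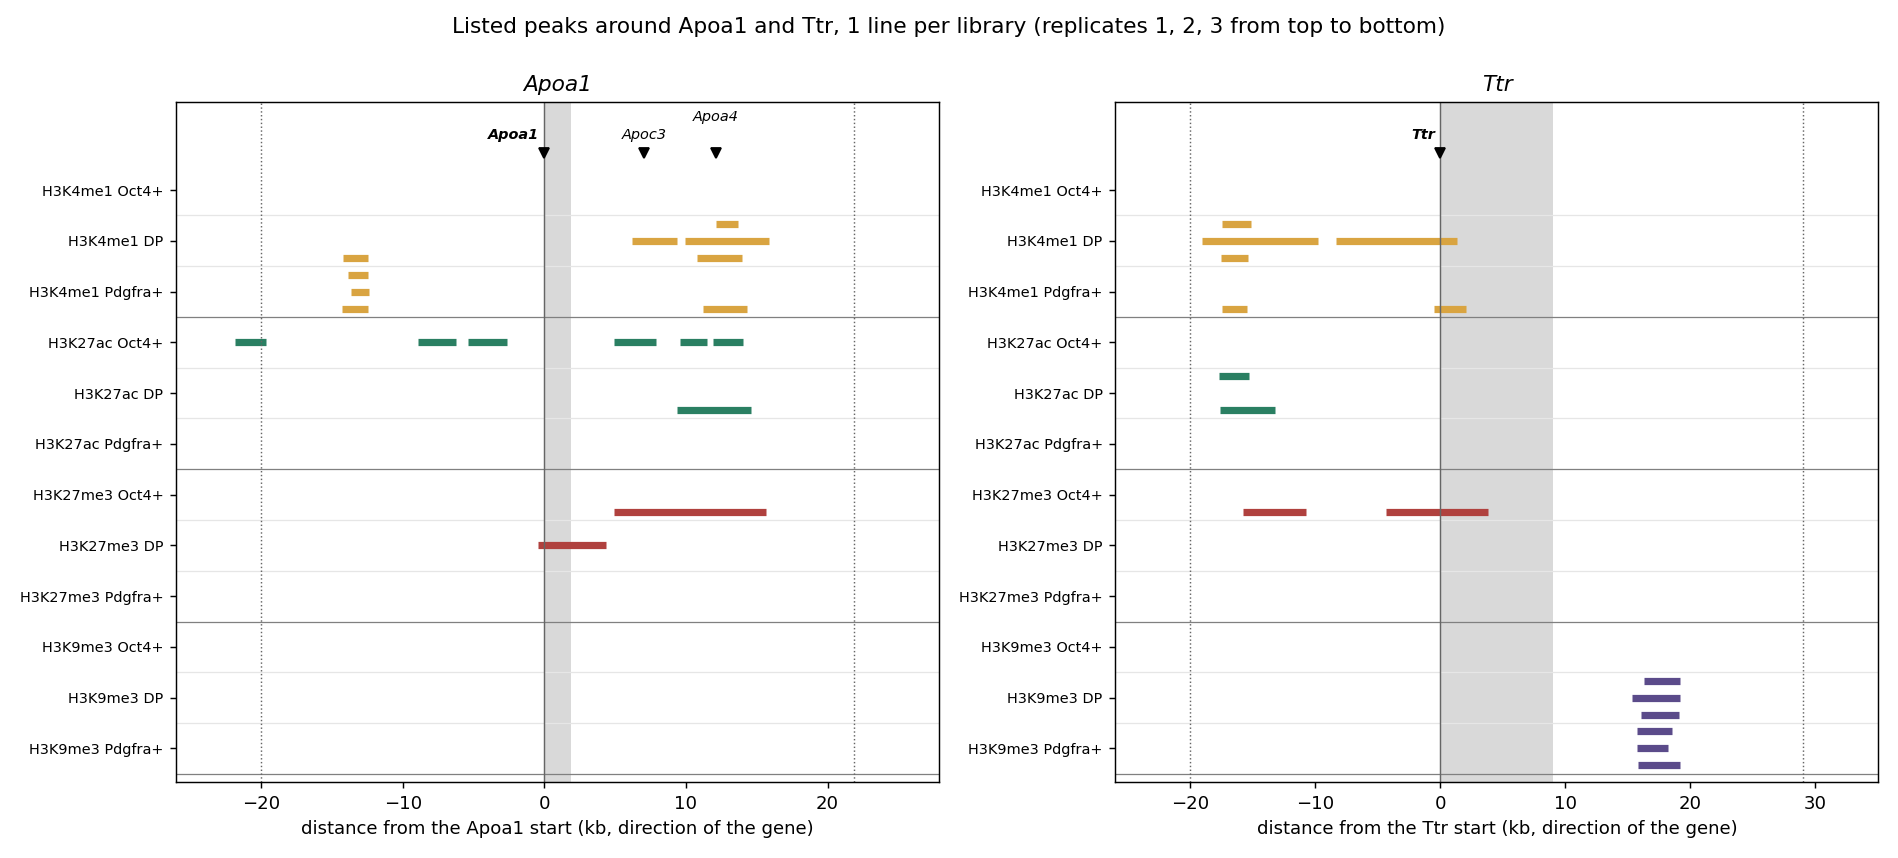
Listed peaks around Apoa1 (left) and Ttr (right) against distance from the gene's start in kb, with 1 line per library grouped by mark and population, the gene body in grey, the window ends dotted and triangles at gene starts. H3K4me1 bars of Apoa1 stack near -13 and 13.5 kb in DP and Pdgfra+ and are missing in Oct4+, and H3K9me3 bars of Ttr stack at 15.3 to 19.2 kb in the same populations.

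Ttr encodes transthyretin, the carrier of thyroid hormone and of the retinol-binding protein, and lies on chromosome 18 with a window of 49.0 kb. H3K4me1 covered 0, 0 and 0% of the window in Oct4+, 4.76, 38.7 and 4.33% in DP, and 0, 0 and 9.35% in Pdgfra+. All 3 DP libraries lay above all Oct4+ libraries, and Pdgfra+ overlapped both. The exact permutation test gave p = 0.179 (adjusted p = 0.639). The mean of DP, 15.9 ± 19.7% (SD, n = 3), rested on replicate 2: without it the difference from Oct4+ was 4.55 points instead of 15.9. A peak in 3 of 3 DP and 0 of 3 Oct4+ libraries, as at Ttr and Apoa1, was found at 2.16% of all genes.

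The H3K4me1 peaks of Ttr shared a site with maxima at -16.8 to -16.3 kb from the start, present in 3 of 3 DP libraries and in Pdgfra+ replicate 3. H3K27ac was listed at the same site in DP replicates 1 and 3, with maxima at -16.5 and -16.1 kb, and covered 4.96 and 8.97% of the window. It was listed in none of the other 7 libraries. DP replicate 2, which lacked H3K27ac there, had the shortest list of that mark, with 3079 peaks. The Ttr start lay under an H3K4me1 peak in DP replicate 2 and Pdgfra+ replicate 3 and under no H3K27ac peak.

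H3K27me3 was listed at Ttr in 1 library, Oct4+ replicate 3, where it covered 26.9% of the window, including the start. That library also held the only H3K27me3 peak at Hhex and 1 of 2 at Apoa1, so 4 of the 7 genes had the mark in it, against 29.7% of all genes. In the other 8 H3K27me3 libraries 0 to 2 of the 7 genes had a peak.

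H3K9me3 at Ttr gave the smallest p of the tested genes of the group. It covered 0, 0 and 0% in Oct4+, 5.75, 7.84 and 6.19% in DP, and 5.77, 4.99 and 6.86% in Pdgfra+. The DP and Pdgfra+ values overlapped each other and did not overlap Oct4+, with means of 6.59 ± 1.1 and 5.87 ± 0.936% (SD, n = 3). The peaks lay at a single site 15.3 to 19.2 kb past the start, beyond the end of the gene, over the pseudogene Gm10269, in a stretch that was 32.9% repeat sequence. The exact permutation test gave p = 0.0179 and the adjusted p was 0.218, so the difference was not called, and 17.9% of genes tested for H3K9me3 had an unadjusted p below 0.05. The pattern of 6 of 6 against 0 of 3 occurred at 0.671% of all genes. The lowest total signal in a list moved with the populations, from 3752 to 4609 in Oct4+ to 6021 to 6596 in DP and 7633 to 8993 in Pdgfra+. The peaks at Ttr had total signals of 7828 to 19052, above the lowest of every Oct4+ list. These totals are not scaled to depth, and their part in the result was not tested.

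Apoe encodes apolipoprotein E, a ligand of lipoprotein receptors. Its window of 43.1 kb around chr7:19696109-19699188 also holds the starts of Apoc1, Apoc4 and Apoc2 and, upstream, of Tomm40, a subunit of the mitochondrial import pore. It had peaks in 14 libraries, the most of the 7 genes, all of them H3K4me1 or H3K27ac. H3K27ac covered 30.6, 53.4 and 11.0% in Oct4+, 28.3, 0 and 35.9% in DP, and 13.5, 5.35 and 37.4% in Pdgfra+. The populations overlapped throughout, with means of 31.7 ± 21.2, 21.4 ± 18.9 and 18.7 ± 16.7% (SD, n = 3) and an exact permutation p of 0.721 (adjusted p = 0.854). H3K4me1 covered 0, 40.1 and 9.25% in Oct4+, 4.18, 64.7 and 19.0% in DP, and 0, 0 and 35.0% in Pdgfra+, with means of 16.4 ± 21, 29.3 ± 31.6 and 11.7 ± 20.2% (SD, n = 3; exact permutation p = 0.668, adjusted p = 0.791). These also overlapped.

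The H3K27ac of the Apoe window lay mainly in a pair of places. The first, chr7:19710558-19719483, spanned the Tomm40 start and was listed in 3 of 3 Oct4+, 2 of 3 DP and 3 of 3 Pdgfra+ libraries. The second, chr7:19690082-19705426, spanned the starts of Apoe and Apoc1 and was listed in 3, 2 and 1 libraries of the populations in the same order. The Apoe start, whose promoter is printed above, lay under an H3K27ac peak in 2 Oct4+, 2 DP and 1 Pdgfra+ libraries and under an H3K4me1 peak in the same numbers. In 3 of those 5 libraries, Oct4+ replicate 1, DP replicate 1 and Pdgfra+ replicate 3, the H3K27ac maximum lay 0.071 to 0.073 kb past the Apoe start. In Pdgfra+ replicates 1 and 2 the acetylation of the window was at the Tomm40 start alone.

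Rbp4 encodes the retinol-binding protein that carries vitamin A together with transthyretin. Its window of 48.7 kb around chr19:38116629-38125281 was the one of the 7 with H3K27me3 in at least 2 libraries of a population. That mark covered 0, 6.22 and 18.8% in Oct4+, 24.4, 26.2 and 20% in DP, and 0, 9.98 and 30.5% in Pdgfra+. The DP values lay above all of Oct4+, while Pdgfra+ spanned both. The means were 8.35 ± 9.60, 23.5 ± 3.22 and 13.5 ± 15.5% (SD, n = 3) in Oct4+, DP and Pdgfra+. The exact permutation test gave p = 0.279 (adjusted p = 0.549). Among all genes, covered percent of H3K27me3 was higher in DP than in Oct4+ at 35.0% and lower at 7.83%. Whether the difference at Rbp4 goes beyond this was not tested. With equal numbers of peaks per list, 0 of 9 libraries had an H3K27me3 peak at Rbp4, and the difference between DP and Oct4+ was 7.08 points instead of 15.2 when the 50% of each list with the lowest total signal was dropped.

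H3K27me3 lay at 2 sites of the Rbp4 window. At the Rbp4 start, chr19:38119178-38129896, it was listed in 1 Oct4+, 3 DP and 2 Pdgfra+ libraries, with maxima 0.431 to 1.23 kb inside the gene. At the start of the neighbour Ffar4, a receptor of long-chain fatty acids, chr19:38093273-38105498, it was listed in 2, 3 and 2 libraries. H3K27ac was listed over the Rbp4 start in 1 library, Oct4+ replicate 2. The other H3K27ac peaks, in DP replicate 3 and Pdgfra+ replicate 2, had their maxima at -9.02 and -8.79 kb, inside Pde6c, a gene of cone photoreceptors. Covered percent of H3K27ac was 0, 4.56 and 0% in Oct4+, 0, 0 and 10.6% in DP, and 0, 6.39 and 0% in Pdgfra+ (exact permutation p = 1, adjusted p = 1), so no population had it in more than 1 library.

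**Figure D3:**
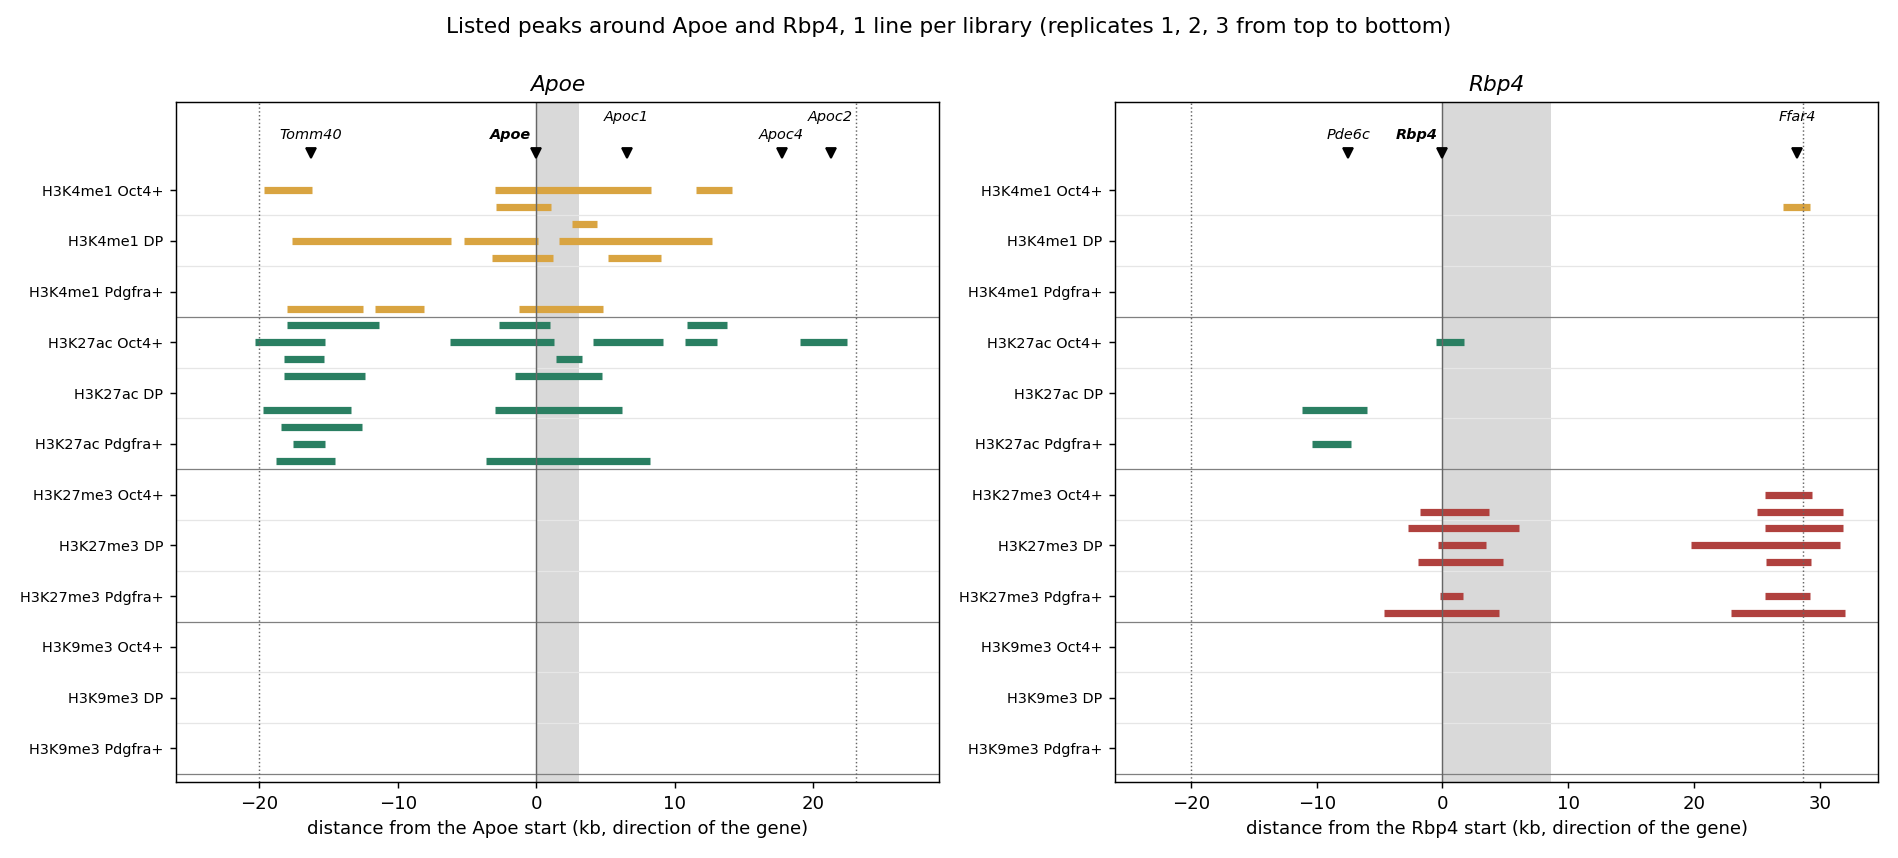
Listed peaks around Apoe (left) and Rbp4 (right) against distance from the gene's start in kb, drawn as for Apoa1 and Ttr. Apoe has H3K27ac and H3K4me1 bars at its own start and at that of Tomm40 in all populations and none of H3K27me3 or H3K9me3, and Rbp4 has H3K27me3 bars at its own start and at that of Ffar4, present in 3 of 3 DP libraries.

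Afp encodes alpha-fetoprotein, the albumin-like plasma protein of the fetus. Its window, 58.2 kb around chr5:90490737-90508907, held 1 peak in the 36 lists, and 10.2% of all genes had a peak in at most 1 library. That peak was H3K27ac in Oct4+ replicate 2, at -16.9 to -12.8 kb from the start, and covered 7.10% of the window. It stood in the longest of the 36 lists, and its total signal was 9542, where the lowest of that list was 5460. Over the 9 libraries of each mark, the nearest peak to the Afp start was at a median distance of 241 kb for H3K4me1, 123 kb for H3K27ac, 606 kb for H3K27me3 and 117 kb for H3K9me3.

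Cer1 encodes Cerberus, a secreted inhibitor of Nodal and BMP that the anterior visceral endoderm releases. Its window, 43.4 kb around chr4:82881751-82885148, had no H3K4me1, H3K27ac or H3K27me3 peak in any library. The nearest of these were 128, 60.0 and 208 kb from the start. H3K9me3 covered 4.50, 4.70 and 3.94% in Oct4+, 0, 0 and 0% in DP, and 6.97, 0 and 0% in Pdgfra+. All 3 Oct4+ libraries lay above all DP libraries, and Pdgfra+ replicate 1 lay above every other. The exact permutation test gave p = 0.143 (adjusted p = 0.443), and a peak in 3 of 3 Oct4+ and 0 of 3 DP libraries occurred at 2.95% of all genes.

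The H3K9me3 peaks of Cer1 shared 1 site, chr4:82869646-82872679, 12.5 to 15.5 kb past the start with its maxima outside any annotated gene and with 26.4% repeat sequence. Their total signal was 5770 to 7364 in Oct4+. The lowest total signal in the DP lists was 6021 to 6596, so the weakest of the Oct4+ peaks, at 5770, was below the lowest peak of every DP list. When every peak below the highest of the 9 lowest total signals of the mark was dropped, an alternative added after the data were seen, the site was listed in Pdgfra+ replicate 1 and in no Oct4+ or DP library.

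Hhex encodes a homeobox factor of the anterior visceral endoderm and of the early liver. Its window, 45.9 kb around chr19:37434810-37440731, carried H3K9me3 in 9 of 9 libraries, as 7.3% of all genes did. Covered percent was 9.26, 8.09 and 0.679% in Oct4+, 5.33, 5.98 and 6.01% in DP, and 9.48, 3.75 and 8.09% in Pdgfra+. The populations overlapped, with means of 6.01 ± 4.65, 5.77 ± 0.383 and 7.11 ± 2.99% (SD, n = 3; exact permutation p = 0.875, adjusted p = 0.978). The peaks common to all lay 21.1 to 29.1 kb past the start, across the edge of the window and 41.8% in repeat sequence. Another site, 12.5 to 15.3 kb past the start, was listed in Oct4+ replicates 1 and 2 alone. Where the maximum of a peak had to lie inside the window, H3K9me3 was listed in 2, 3 and 1 libraries of Oct4+, DP and Pdgfra+, and with equal numbers of peaks in 0, 3 and 3.

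The CpG-rich start of Hhex was marked in few libraries. H3K27ac lay over it in Oct4+ replicate 2 (6.84% of the window) and DP replicate 1 (5.78%), with maxima 0.154 and 0.088 kb inside the gene. H3K27me3 lay over it in Oct4+ replicate 3, covering 11.7%, and H3K4me1 was listed inside the gene in DP replicate 2, covering 6.68%. No population had any of these 3 marks in more than 1 library.

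Across the 7 genes no difference between populations was called for any mark. The exact permutation test could be run where 3 or more of the 9 libraries of a mark had a peak at the gene, which left 3 of the 7 genes for H3K4me1, 2 for H3K27ac, 1 for H3K27me3 and 3 for H3K9me3. Of all genes tested, 0 of 8847, 12933, 6857 and 9217 were called in the same order (0%), and 832, 1623, 713 and 1654 of them (9.4, 12.5, 10.4 and 17.9%) had an unadjusted p below 0.05. Among the members these were Apoa1 for H3K4me1 and Ttr for H3K9me3. The smallest p this design allows is 0.00357, and 7.14% of the tested genes would have had to reach it for a call, where 0.203 to 0.987% did. An exact permutation test of 3 against 3 libraries cannot go below p = 0.10.

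Counted by presence within a population, the 7 genes lay below the share of all genes for H3K27ac and nearer to it for the other marks. At least 2 of 3 libraries had a peak for 1, 3 and 1 of the 7 genes in Oct4+, DP and Pdgfra+ for H3K4me1, beside 29, 33.9 and 10.1% of all genes. For H3K27ac the counts were 1, 2 and 1, beside 69, 49.1 and 33.9%. For H3K27me3 they were 1, 1 and 1, beside 17.7, 30.9 and 15.4%, and for H3K9me3 2, 2 and 2, beside 35.5, 30.1 and 25.7%. Library by library, the share of the 7 genes with an H3K27ac peak lay below that of all genes in 8 of 9 libraries. The share with an H3K4me1 peak lay above that of all genes in 6 of 6 DP and Pdgfra+ libraries and in 1 of 3 Oct4+ libraries. It was 3, 4 and 3 of the 7 genes in DP, beside 18.2, 42.8 and 36.7% of all genes. In Pdgfra+ it was 1, 1 and 3 genes, beside 8.21, 5.35 and 35.5%. Since 1 gene is 14.3% of the 7, a single gene was enough in Pdgfra+ replicates 1 and 2.

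**Figure D4:**
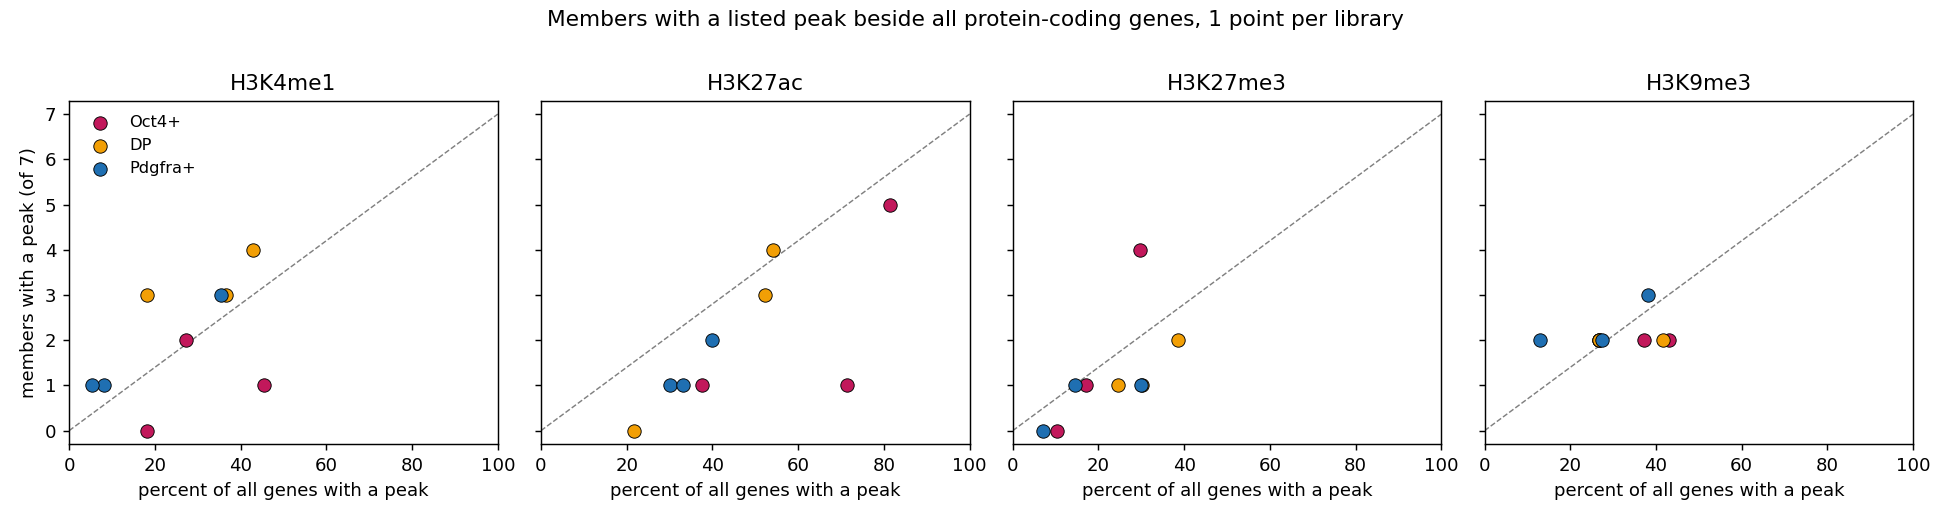
Number of the 7 genes with a listed peak against the percent of all 21911 protein-coding genes with one, with 1 point per library coloured by population and 1 panel per mark. Points on the dashed line have the same share in both, and 8 of 9 H3K27ac points lie below it.

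H3K27ac was also read at the genes of the markers used for the sort. Pou5f1, which encodes OCT4, had H3K27ac at 30.8, 34.3 and 16.1% of its window in Oct4+, 42.7, 0 and 0% in DP, and 0, 0 and 15.4% in Pdgfra+ (exact permutation p = 0.271, adjusted p = 0.583). Pdgfra had H3K27ac at 0, 0 and 0% in Oct4+, 15.3, 0 and 16.1% in DP, and 6.10, 7.86 and 5.43% in Pdgfra+ (exact permutation p = 0.121, adjusted p = 0.514). Both carried the mark in 3 of 3 libraries of the population named for them, and neither difference was called.

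Other visceral endoderm genes were read from a pair of lists beside the 7. Among 16 further carriers and uptake receptors, 10, 9 and 7 had H3K27ac in at least 2 of 3 Oct4+, DP and Pdgfra+ libraries, and 4, 6 and 3 had H3K4me1, beside 69, 49.1 and 33.9% and 29, 33.9 and 10.1% of all genes. Their median difference between DP and Oct4+ was 1.55 points of covered percent for H3K4me1 and -2.15 points for H3K27ac, beside 0 and -2.41 points over all genes. Apoa4, whose window overlaps that of Apoa1 and shares its downstream site, had H3K4me1 means of 0, 10.7 ± 9.25 and 2.45 ± 4.25% in Oct4+, DP and Pdgfra+ (SD, n = 3; exact permutation p = 0.0714, adjusted p = 0.522). Amn, which encodes a subunit of the receptor that takes up vitamin B12 in the visceral endoderm, had H3K27me3 in 3 of 3 Oct4+ libraries at 17.0 ± 11.0% and in none of the other 6 (exact permutation p = 0.0357, adjusted p = 0.391). Trf, the gene of the iron carrier transferrin, had H3K27me3 in 0, 3 and 2 libraries, with means of 0, 12.4 ± 6.68 and 9.71 ± 13% (exact permutation p = 0.200, adjusted p = 0.528). Lrp2, the gene of the endocytic receptor megalin, had H3K9me3 in 3 of 3 Oct4+ libraries at 1.39 ± 0.363% and in none of the other 6 (exact permutation p = 0.0357, adjusted p = 0.218).

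The second list held 17 regulators and signals of the visceral endoderm. At least 2 of 3 libraries had H3K4me1 at 12, 12 and 3 of them in Oct4+, DP and Pdgfra+, beside 29, 33.9 and 10.1% of all genes. For H3K27ac the counts were 11, 11 and 7, beside 69, 49.1 and 33.9%. For H3K27me3 they were 14, 8 and 1, beside 17.7, 30.9 and 15.4%, and for H3K9me3 1, 1 and 1, beside 35.5, 30.1 and 25.7%. Foxa2, a forkhead factor of endoderm, had H3K27ac means of 2.08 ± 3.60, 24.0 ± 10.1 and 18.8 ± 2.75% (SD, n = 3; exact permutation p = 0.0179, adjusted p = 0.306), with a peak in 1, 3 and 3 libraries. Nodal went the other way, with 26.6 ± 7.29, 2.54 ± 4.41 and 0% (exact permutation p = 0.0357, adjusted p = 0.306). By the means, H3K27ac was higher in DP than in Oct4+ at 13 of the 17 genes and lower at 3. Among all genes it was higher at 14.2% and lower at 71.0%. For Pdgfra+ against Oct4+ it was higher at 8 of the 17 and lower at 7, beside 6.98 and 77.7% of all genes. Lefty1, like Cer1 a secreted Nodal inhibitor of the anterior visceral endoderm, had H3K4me1 means of 14.1 ± 6.91, 42.0 ± 22.7 and 6.47 ± 11.2% (exact permutation p = 0.0214, adjusted p = 0.426), where Cer1 had no H3K4me1 peak. H3K27me3 was lower in DP than in Oct4+ at 7.83% of all genes and higher at 35.0%, with a median difference of 0 points. By the means it was lower at 10 of the 17 genes and higher at 5, with a median difference of -2.56 points. Of the 5, Gsc, a homeobox gene of the same anterior tissue, had means of 19.5 ± 24.9, 72.7 ± 26.3 and 22.8 ± 29.8% in Oct4+, DP and Pdgfra+ (SD, n = 3; exact permutation p = 0.136, adjusted p = 0.484). Lhx1, another such gene, had 31.1 ± 19.3, 55.1 ± 2.3 and 15.9 ± 27.5% (exact permutation p = 0.114, adjusted p = 0.466). Cer1 had no H3K27me3 in any library and Hhex had it in 1. None of the genes of either list was called. For H3K4me1, H3K27ac, H3K27me3 and H3K9me3, 8, 10, 3 and 2 carriers could be tested. Of these, 2, 0, 1 and 1 had an unadjusted p below 0.05. Of the regulators, 13, 12, 14 and 2 could be tested, and 4, 4, 5 and 0 had such a p. Among all genes tested for each mark the shares were 9.4, 12.5, 10.4 and 17.9%.

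Markers of other cell types were read in the same libraries. Of 12 pluripotency genes, 12, 4 and 1 had H3K27ac in at least 2 of 3 Oct4+, DP and Pdgfra+ libraries, with 11 to 12, 2 to 6 and 1 to 3 genes marked per library. Of 12 parietal endoderm genes, 10, 7 and 7 had H3K27ac and 5, 9 and 8 had H3K4me1. Of 10 trophectoderm genes, 7, 5 and 5 had H3K27ac. The shares of all genes were 69, 49.1 and 33.9% for H3K27ac and 29, 33.9 and 10.1% for H3K4me1. Klf2, a pluripotency factor, had H3K27ac means of 62.8 ± 14.7, 11.8 ± 0.645 and 1.90 ± 3.29% (SD, n = 3; exact permutation p = 0.00357, the smallest possible, adjusted p = 0.306). Col4a1, a collagen gene of the basement membrane, had 4.78 ± 4.87, 33.1 ± 16.5 and 25.4 ± 4.98% (exact permutation p = 0.0464, adjusted p = 0.370). The 12 parietal endoderm genes were split by the means of H3K27ac. Against Oct4+, 7 were higher and 5 lower in DP, and 6 were higher and 6 lower in Pdgfra+. Among all genes, 14.2% were higher and 71.0% lower in DP, and 6.98% were higher and 77.7% lower in Pdgfra+. The part of the cell mixture in the values of the 7 genes was not tested.

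By the correlation of covered percent over the 36 libraries, Apoe was most like Neil2 (Pearson r = 0.958) and Ccne1 (r = 0.957), and Rbp4 was most like Nptxr (r = 0.973) and Nup133 (r = 0.968). For Apoa1 these were Lkaaear1 (r = 0.914) and Trim2 (r = 0.888), for Ttr Sbsn (r = 0.875) and Rnf130 (r = 0.859), and for Hhex Sgip1 (r = 0.827) and Cldn11 (r = 0.823). The 36 points share marks and list lengths, so these values describe a likeness of rows and nothing more. Afp and Cer1 had peaks in too few libraries to be compared in this way.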

How the data were processed

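The authors aligned paired-end CUT&Tag reads with Bowtie2 to mm10 (GRCm38) and called peaks for each library against IgG with SEACR in stringent mode on bedtools 2.26.0 coverage. The submitters' processing notes also name bcl2fastq 2.19.1, SAMtools 1.12 and deepTools. The deposited lists give each peak's total and maximum signal as fragment coverage in whole numbers that are not scaled to depth. Neither the labels nor the lists state read numbers, so depth is unknown. The 3 IgG samples were not used here. The lists of 2 libraries shared at most 0.116% of their intervals, so none was counted as a copy of another.

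For each of 21911 protein-coding genes of GENCODE vM21, the percent of the gene body and 20 kb either side under listed peaks was computed, an overlap of 1 base being enough to list a peak. For each mark, genes with a peak in at least 3 of 9 libraries were tested by exact permutation, with the F statistic of a one-way layout as the measure, over 1680 assignments of the 9 libraries (two-sided), with Benjamini-Hochberg adjustment over all genes tested for the mark and a threshold of 0.05. Libraries came from 3 replicates per population, which the paper calls biological replicates. The labels do not say whether these were separate cultures, so p-values measure the spread between these samples. Replicate numbers were not used as pairs, since for no mark did all 9 same-numbered pairs of libraries deviate together. The test and the overlaps were checked on simulated data and against bedtools 2.31.1. Python 3.11.15, NumPy 2.4.6, pandas 2.3.3, SciPy 1.17.1, samtools 1.23.1 and Matplotlib 3.10.9 were used. Named genes were the 7 genes, Pou5f1 and Pdgfra as genes of the sort, genes out of the up to 3 per list and mark with the largest difference between population means, and for each of the 7 genes the 2 most correlated genes with windows that did not overlap, where it had peaks in at least 6 libraries. The 7 genes and the lists were chosen with earlier results of these data known. Peaks near the lowest total signal of a list depend on where the caller set its threshold, and a short list can miss marked regions.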

Additional observations from a re-analysis of the deposited data

How the results depend on the processing

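No gene was called for any mark under any setting tried, in a design whose smallest p 7.14% of the tested genes would have to reach for a call: equal numbers of peaks, the 50% of peaks of highest total signal, windows of 5 or 50 kb beside the gene body or 20 kb beside the start, peaks whose maximum lay inside the window, genes with a peak in at least 1 library, each library left out in turn and, added after the data were seen, a common minimum of total signal and values relative to the library mean. The number of combinations of gene, mark and population (of 84) with a peak in at least 2 of 3 libraries was 18, and 13 to 16 with a replicate left out. It was 6 with equal numbers of peaks, 6 with windows of 5 kb, 9 with a common minimum of total signal and 26 with windows of 50 kb, where H3K27ac at Apoa1 was listed in 3 Oct4+ and 2 DP libraries. The Apoe difference in H3K27ac between Oct4+ and Pdgfra+ turned to -11.1 points of covered percent with equal numbers of peaks, -17.0 with a common minimum and -1.62 relative to the library mean. That of Apoe in H3K4me1 between DP and Pdgfra+ ran from -0.0867, without DP replicate 2, to 30.2 points, without DP replicate 1. That of Hhex in H3K9me3 between Pdgfra+ and DP turned to -0.797 points with 50 kb and -2.74 with maxima inside the window. The cause was not tested.

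With equal numbers of peaks, 0 of 3 DP and 1 of 3 Pdgfra+ libraries kept an H3K4me1 peak at Apoa1, and 0 of 3 DP libraries kept one at Ttr, while H3K9me3 at Ttr was listed in 2 of 3 DP, 2 of 3 Pdgfra+ and 0 of 3 Oct4+ libraries. With windows of 5 kb the sites upstream and downstream of Apoa1, Ttr and Cer1 and the H3K9me3 sites of Hhex fell outside. With 20 kb around the start, H3K9me3 at Hhex was listed in 2 of 3 Oct4+ libraries and in 0 of the other 6, and with windows of 50 kb Oct4+ libraries also had H3K4me1 peaks near Ttr. In all, 143 alternative values of tested differences at the genes kept their direction, the 6 above did not, and 22 could not be tested because too few libraries had a peak. Same-numbered replicates deviated together, with a correlation above 0.1, in 4, 1, 3 and 3 of 9 pairs for H3K4me1, H3K27ac, H3K27me3 and H3K9me3, and for H3K27me3 these were all 3 pairs of Oct4+ with Pdgfra+ (0.389 to 0.692). A fit with the replicate number as a block called 0 genes for each mark, but its smallest possible p was 0.0278, which 55.6% of the tested genes would have had to reach for a call, so this count says nothing about stability. The unknown depth limits what a missing peak can show.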
